A study of Mus musculus with 9 samples.

Results

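Tail skin with acute experimental lymphedema was compared with tail skin that had the same wound without cautery of the lymphatic trunks, on 6 of the 9 arrays of the series (3 lymphedema, 3 surgical sham). The question was what lymph stasis adds to the response to a skin incision. Only the lymphedema group was cauterized, so a response to the cautery itself and one to stasis cannot be told apart. The other 3 arrays, from normal tail skin, entered the model for their share of the error estimate and served as the level from which wound and lymphedema skin departed. All mice were young female SKH-1 hairless mice, an immunocompetent strain. In the lymphedema group the tail skin was cut around its circumference near the base, methylene blue was injected beyond the cut to show the main lymphatic trunks, and these were then cauterized. The sham group had the skin incision and the dye without cautery, and the normal group had no surgery. Skin was taken distal to the incision at the end of the second week. Each array carried RNA pooled from several mice, so the spread between arrays is a spread between pools, and every array was hybridized against RNA of whole E17.5 embryos. Levels are therefore log2 ratios of tail skin to embryo, and a value of 0 is the median feature of that array.

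Lymph carries interstitial fluid, protein and leukocytes out of the skin, and its arrest leaves fluid and inflammatory cells in the tissue. A healing incision by itself draws neutrophils and macrophages, activates keratinocytes and starts new matrix, so that many genes of inflammation and repair answer to both operations. Interferons, secreted by leukocytes and other cells, switch on antiviral genes and the machinery that displays peptides on MHC class I molecules. Fewer cells of a type and less RNA per cell cannot be told apart in whole skin, and this applies to every marker below.

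Of 10 adult skin genes used to check the tissue, 8 or 9 lay below the median feature of an array in the deposited values and 1 or 2 above it, with medians of -3.31 to -2.48. Of 25 or 26 embryo genes measured, 1 lay below it on every array and the rest above, with medians of 2.85 to 3.67. The deposited values were therefore read as embryo over tail skin and their sign was turned. The labels put the tail skin in the Cy5 channel and the embryo in Cy3, while the methods give the opposite dyes, and the direction used here is opposite to that of a Cy5 over Cy3 ratio under the labels. The base of the logarithm is not stated, and folds below take it as 2. Sham array 3 stood apart from its group. Over the 30702 features measured on each of the 9 arrays its correlation was 0.818 with sham array 1 and 0.871 with sham array 2, against 0.906 between those arrays and 0.912 between sham array 3 and lymphedema array 3. With lymphedema arrays 1 and 2, sham array 3 correlated at 0.8676 and 0.8595. Sham array 1 gave 0.8897 and 0.8913 with them, and sham array 2 gave 0.9197 and 0.897. Among the lymphedema arrays, sham array 3 was thus closer than the other sham arrays to lymphedema array 3 alone. With normal arrays 1, 2 and 3, sham array 3 correlated at 0.8858, 0.8938 and 0.8992, above its values with sham arrays 1 and 2. A pattern of missing spots divided the arrays otherwise: 186 features had values on lymphedema array 1 and all normal arrays and on none of the other 5, and only 1 feature had the reverse. The pattern was treated as a candidate set of slides, since no source names the print runs. All normal arrays lay in the set with lymphedema array 1 and all sham arrays in the other. Any difference of sham from normal therefore cannot be told apart from the set. With the set as a block, the lymphedema minus sham fit is the same as without lymphedema array 1, the only array that links the sets within a group.

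With all arrays, 1 gene rose and 1 gene fell in lymphedema relative to sham among 8644 genes tested (0.0116% in each direction, limma, Benjamini-Hochberg adjusted p below 0.05). The gene that rose was Irf7, the transcription factor that amplifies type I interferon production. Its level was 1.89, 1.85 and 2.25 on the lymphedema arrays and 0.58, -0.01 and 0.68 on the sham arrays, and 0.20, 0.08 and 0.12 in normal skin. The sham arrays thus stayed near normal skin and the lymphedema arrays lay above both. The difference was 1.58 on the log2 scale (SE 0.21, 2.99-fold, n = 3 arrays a group, limma adjusted p = 0.0465). In this fit Irf7 rested on 1 clone. The difference stayed positive under all 18 alternatives, a sign that leaving out an array could not turn, as the groups did not overlap. The call was lost in 14 of the 18, among them no centering (limma adjusted p = 0.0595), quantile normalization (0.0710), the replicate block (0.0664), the 6 arrays alone (difference 1.17, adjusted p = 0.445) and the removal of any array other than sham array 3 (0.0883 to 0.262). With values on 2 of 3 arrays per group the difference was 1.18 (limma adjusted p = 0.225). That fit and the 6 arrays alone admit more features, and whether further clones of Irf7 entered was not examined. The candidate slide set as a block (limma adjusted p = 0.262) repeats the fit without lymphedema array 1 and counts among the 14.

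The gene that fell was Cd160, a receptor of natural killer and cytotoxic T cells. Its level was 0.45, -0.23 and 0.02 on the lymphedema arrays and 2.52, 1.92 and 1.98 on the sham arrays, and the normal arrays read 0.75, 0.65 and 0.46. Here the sham arrays were the ones that departed most from normal skin, by 1.52 against -0.54 for lymphedema. Neither departure passed (limma adjusted p = 0.166 and 0.223), and the sham and normal arrays lie in different candidate slide sets. The lymphedema minus sham difference was -2.06 (SE 0.22, 4.17-fold lower, n = 3 a group, limma adjusted p = 0.0139). The call held in 13 of 18 alternatives and was lost in 5: with the 6 arrays alone (limma adjusted p = 0.107) and without lymphedema array 2 (0.126), lymphedema array 3 (0.145), sham array 1 (0.0564) or sham array 2 (0.0543). The 13 count the same fit under 2 names, the slide set as a block and the removal of lymphedema array 1 (limma adjusted p = 0.0197). The features, before clones of a gene were averaged, gave 0 rises and 1 fall by limma, 1987 features at an unadjusted p under 0.05, and 0 rises and 2 falls by SAM, the test of the study's methods.

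**Figure D1:**
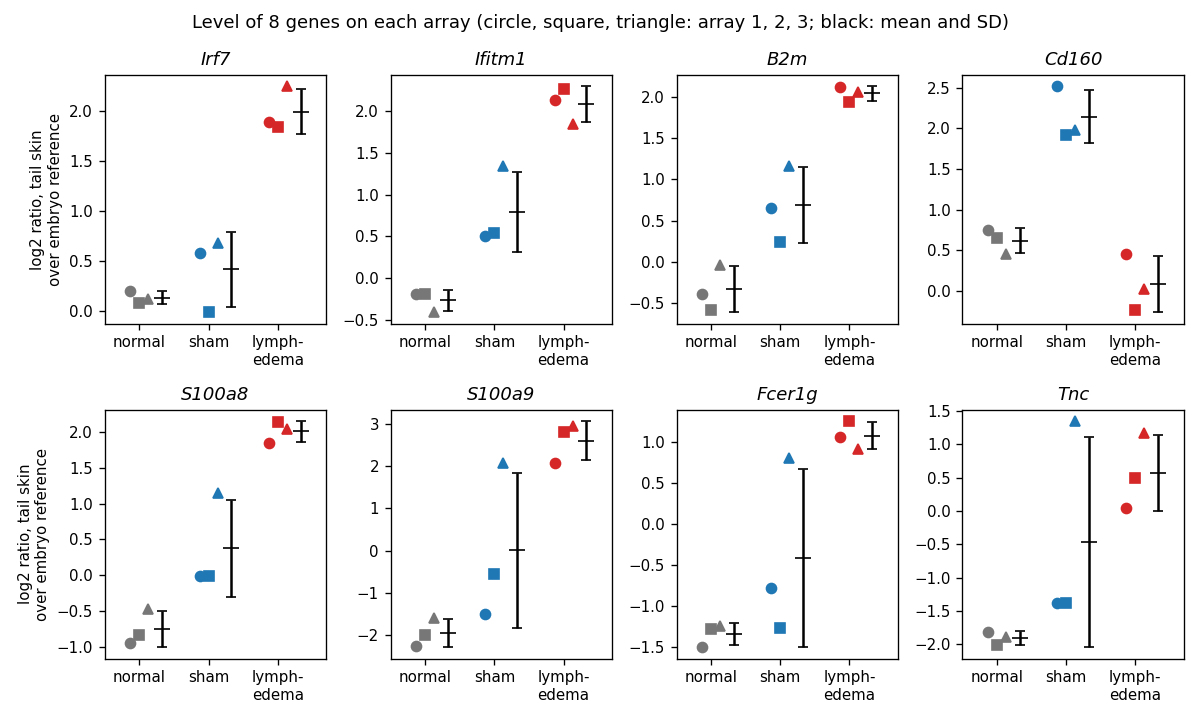
Log2 ratio of tail skin to embryo reference for 8 genes on each of the 9 arrays; circles, squares and triangles are arrays 1, 2 and 3 of a group, and black bars give the group mean with its SD. Irf7, Ifitm1, B2m and S100a8 lie above all sham arrays on every lymphedema array, Cd160 lies below them, and for S100a9, Fcer1g and Tnc sham array 3 lies close to or among the lymphedema arrays.

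Without a threshold, the 3 lymphedema arrays lay above the 3 sham arrays for 480 genes (5.55%) and below them for 386 (4.47%). The genes with the lowest p among these did not pass with all arrays. On the higher side, Nt5e, which makes extracellular adenosine from AMP, read 1.86, 1.68 and 1.80 in lymphedema and 0.73, 0.20 and 0.68 in sham, a difference of 1.25 (SE 0.19, limma adjusted p = 0.105). Coro1a, an actin regulator of leukocytes, read 1.90, 2.12 and 1.28 against 0.46, -0.33 and 0.59, a difference of 1.53 (SE 0.28, limma adjusted p = 0.185). Both were picked among genes whose groups did not overlap, so that separation was fixed in advance. The others were B2m, S100a8 and Ifitm1, described below, 2610528A11Rik with a difference of 1.75, the chitinase-like gene Chil4 with 0.99, the secreted whey acidic protein family gene Wfdc18 with 0.82, and the sorting nexin Snx32 with 1.17 (limma adjusted p between 0.185 and 0.435).

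On the lower side stood Skap2, an adaptor of Src family kinases, at 0.78, 0.94 and 0.49 in lymphedema and 1.85, 1.73 and 1.69 in sham. Its sham values lay at those of normal skin (1.91, 1.98 and 1.72), and the difference was -1.02 (SE 0.17, limma adjusted p = 0.185). Acoxl and Acox3, both of the acyl-CoA oxidase family of lipid oxidation, differed by -1.14 and -0.98. Ccl20, the chemokine that binds CCR6, differed by -0.97, the copper importer Slc31a1 by -0.83, the aldehyde dehydrogenase Aldh3a1 by -1.21, the proprotein convertase Pcsk6 by -0.74 and the poly(A) polymerase Tent5b by -0.83. Fhl1, a LIM protein abundant in skeletal muscle, differed by -1.33, and on its sham arrays it read -3.06, -2.23 and -2.17 against -3.58, -3.75 and -3.87 in normal skin, so the sham arrays were the higher ones. Skeletal muscle genes moved the same way on 2 sham arrays, as given further on.

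Without sham array 3, limma passed 67 genes higher (0.775%) and 21 lower (0.243%) of the 8644, the shares to set beside each list below. With the slide set as a block as well, which leaves lymphedema arrays 2 and 3 against sham arrays 1 and 2, it passed 21 higher (0.243%) and 6 lower (0.0694%). Of those called without the block, 20 and 3 were among them. Sham array 3 stood out in these same values, and leaving out such an array narrows the sham spread. The p-values without it, here and below, are therefore likely too small and serve as description. All of these 67 and 21 genes kept their sign when sham array 3 was put back, but the median difference of the genes that rose went from 1.28 to 0.88. For 44 of the 67, sham array 3 reached into the range of the lymphedema arrays, and for 23 all 3 sham arrays lay below it. Against normal skin the 67 were of more than one kind. In 42 the lymphedema arrays lay above all normal arrays while sham arrays 1 and 2 were not both below normal; in 10 both held; and in 15 the lymphedema arrays were not all above normal and sham arrays 1 and 2 lay below it. Of the 21 lower genes, 19 had all lymphedema arrays below normal skin, and in 9 of these sham arrays 1 and 2 also lay above it.

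Beyond genes already named, the largest rises past the threshold without that array were in S100a9, Ptx3, Lcn2, Fcer1g and Tnc. Of those named before, 2610528A11Rik rose by 2.165 (limma adjusted p = 0.00551) and S100a8 by 2.03. S100a9 is the partner of S100a8 in calprotectin, a protein of neutrophils and of stressed keratinocytes. S100a9 read 2.07, 2.80 and 2.94 in lymphedema, -1.48 and -0.56 on sham arrays 1 and 2, and 2.06 on sham array 3. Sham array 3 was thus just under the lowest lymphedema array, and the other sham arrays lay above every normal array (-2.25, -2.0 and -1.59) and below every lymphedema array. The difference was 3.63 without sham array 3 (SE 0.33, 12.3-fold, limma adjusted p = 0.00222) and 2.60 with it (SE 0.68, adjusted p = 0.491).

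Ptx3, a long pentraxin of innate defense, read 1.37, 1.09 and 0.70 in lymphedema, -1.55 and -1.25 on sham arrays 1 and 2, and 2.09 on sham array 3, which exceeded every lymphedema array. The difference was 2.45 (SE 0.26, limma adjusted p = 0.00456) without sham array 3 and 1.29 (SE 0.74) with it. Lcn2, which starves bacteria of iron, rose by 2.17 without it, Fcer1g, the signaling chain of Fc receptors, by 2.11, and the matrix glycoprotein Tnc by 1.95 (limma adjusted p of 0.0110, 0.00222 and 0.0169). With all arrays the same genes differed by 1.58, 1.50 and 1.04, none past the threshold. Sham array 3 read 0.74 for Lcn2, 0.81 for Fcer1g and 1.35 for Tnc.

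The largest falls without sham array 3, beyond genes already named, were in Gk5, a glycerol kinase (-1.54), Tmem164 (-1.45), Igf2r, the receptor that brings mannose 6-phosphate proteins to lysosomes (-1.39), the acid phosphatase Acpp (-1.38) and 2310034C09Rik (-1.36), with limma adjusted p between 0.0306 and 0.0486. Sham array 3 read 0.24 for Tmem164, where the lymphedema arrays read 1.41, 1.11 and 0.98, and lay below them. For Igf2r the lymphedema arrays (1.52, 1.53 and 1.63) lay in the range of normal skin and the sham arrays at 2.80, 3.10 and 1.97. Cd160 (-2.14), Aldh3a1 (-1.54), Acoxl (-1.20), Skap2 (-1.05) and Slc31a1 (-0.92) also fell without that array.

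**Figure D2:**
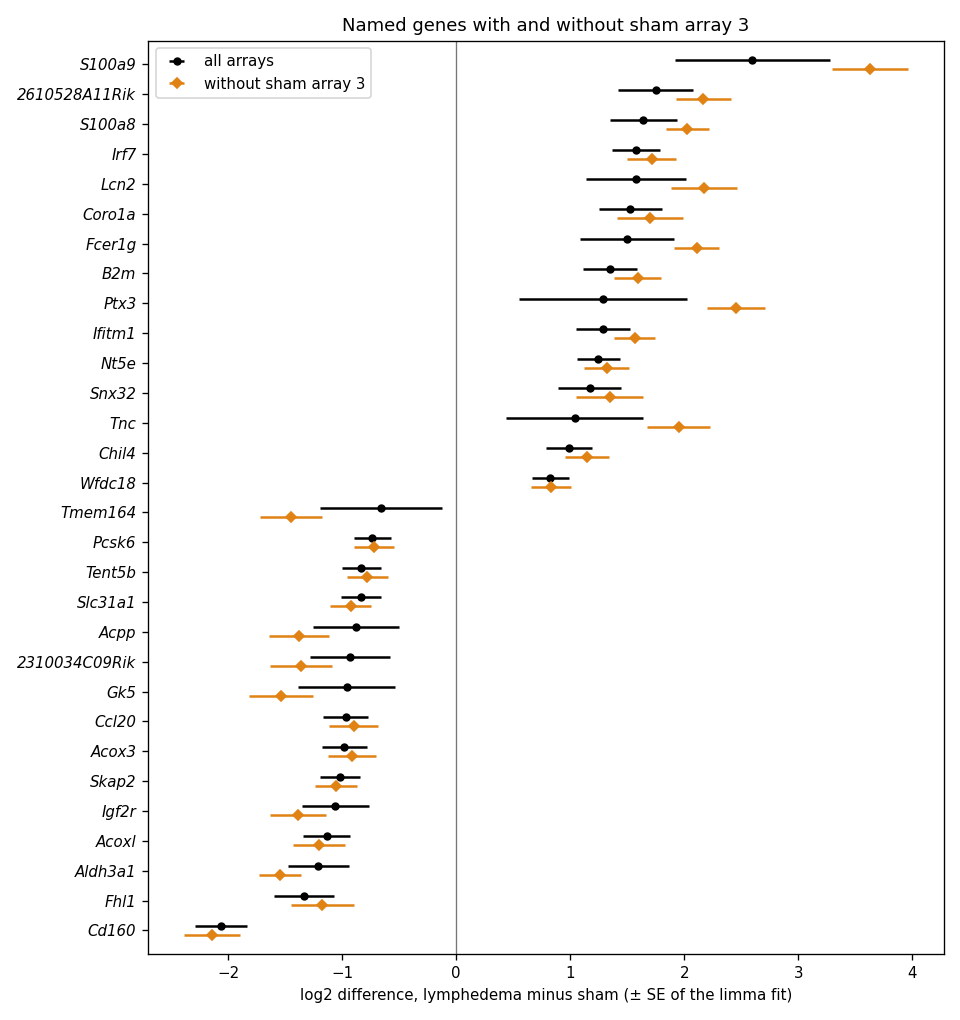
Log2 difference of lymphedema minus sham, with the SE of the limma fit, for the named genes with all arrays (black circles) and without sham array 3 (orange diamonds). Cd160 and Irf7 moved little, from -2.06 to -2.14 and from 1.58 to 1.71, whereas S100a9, Ptx3, Fcer1g and Tnc moved by more than the SE.

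**Figure D3:**
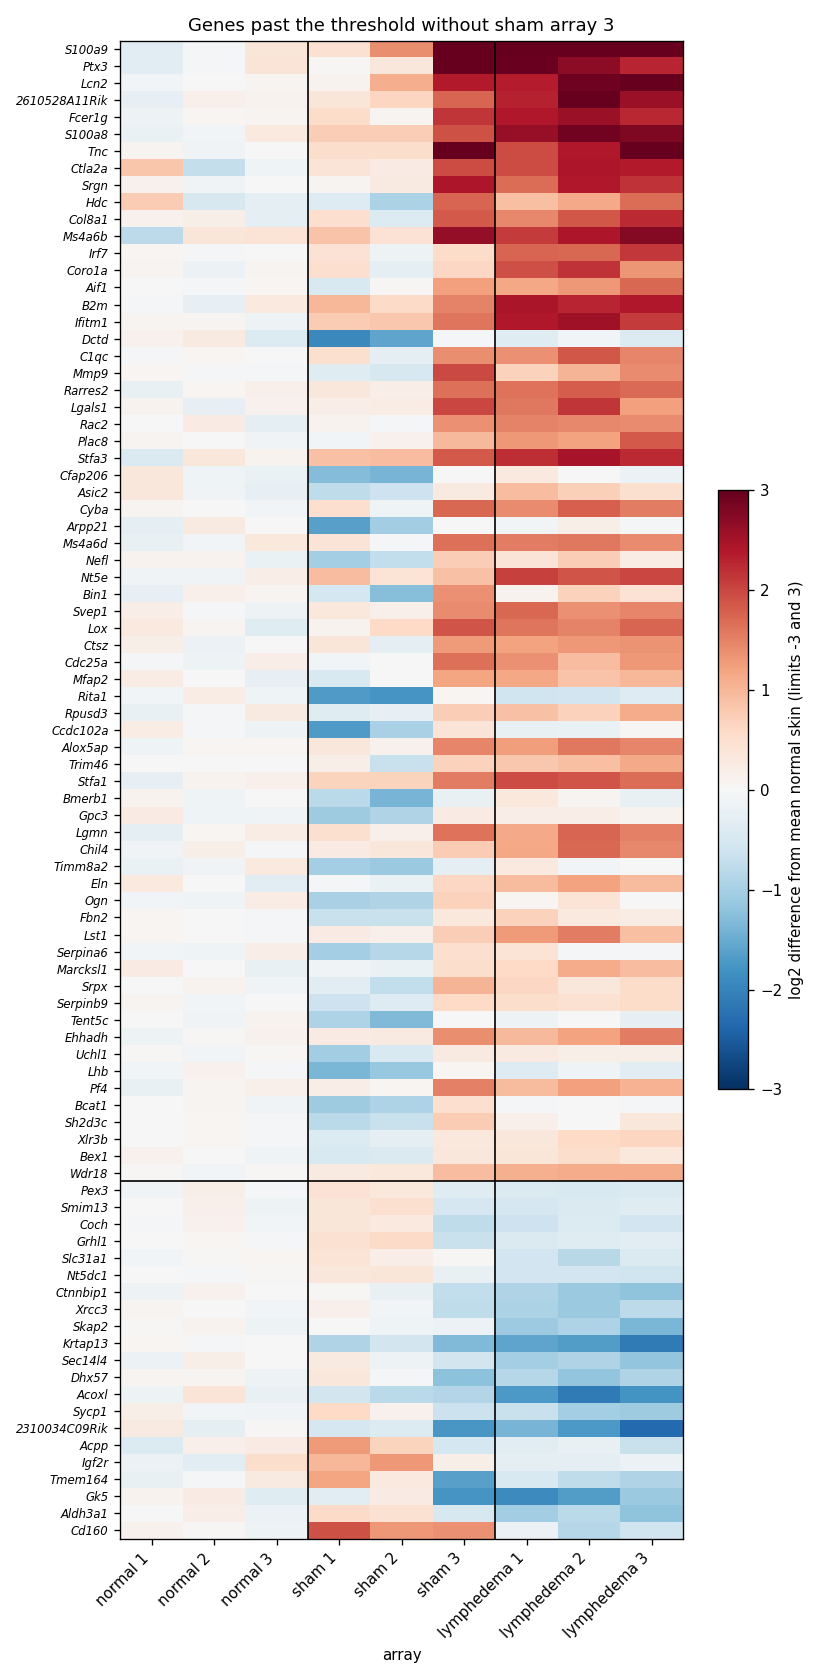
The 67 genes higher and 21 genes lower past the threshold without sham array 3 (rows, split by the horizontal line), shown on all 9 arrays as the log2 difference from mean normal skin, with the color scale ending at -3 and 3. The column of sham array 3 reaches the range of the lymphedema columns for 44 of the 67 upper genes, and a minority of upper genes are blue on sham arrays 1 and 2 and pale in lymphedema.

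Interferon response genes often separated lymphedema from all sham arrays. Of 18 measured, the lymphedema arrays lay above all sham arrays in 8 and below in 0, where 5.55% and 4.47% of all genes did so. Only Irf7 passed with all arrays; Irf7 and Ifitm1 rose without sham array 3. The median difference over the list was 0.58, against 0.03 over all genes, and 0.68 without sham array 3. Relative to mean normal skin the list stood at 0.78, 0.88 and 0.79 on the lymphedema arrays and at 0.25, 0.08 and 0.56 on the sham arrays, which did not overlap.

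Ifitm1, an interferon-induced membrane protein, read 2.13, 2.27 and 1.84 in lymphedema and 0.50, 0.54 and 1.34 in sham, a difference of 1.29 (SE 0.24, limma adjusted p = 0.185; 1.56 without sham array 3, adjusted p = 0.00551). Ifitm3, of the same family, differed by 0.57, but its 5 clones ranged from -0.16 to 1.30. Irf1, an interferon regulatory factor, differed by 0.83, with lymphedema at 1.40, 1.09 and 1.83 inside or near the range of normal skin (1.64, 1.11 and 0.91) and sham at 0.46, 0.63 and 0.72 below it. Ifit1, an antiviral RNA-binding protein named here after its values were seen because of its promoter below, read 1.24, 0.97 and 1.50 against 0.33, 0.92 and 0.17. None of these 4 passed with all arrays. Ifng, the type II interferon itself, differed the other way by -0.63 (lymphedema 0.19, 0.05 and -0.39, sham 0.60, 0.74 and 0.42), and its receptor chain Ifngr1 by 0.64, with adjusted p of 0.562 and 0.592 by limma.

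Genes of MHC class I and peptide loading followed. Of 12 measured, 5 lay above all sham arrays and 0 below (5.55% and 4.47% over all genes). B2m, the light chain of every class I molecule, rose without sham array 3. B2m read 2.12, 1.94 and 2.06 in lymphedema and 0.66, 0.24 and 1.16 in sham, against -0.39, -0.58 and -0.03 in normal skin. Both operations therefore lay above normal skin, lymphedema further. The difference was 1.35 (SE 0.24, 2.55-fold, limma adjusted p = 0.185; 1.59 without sham array 3, adjusted p = 0.0102), and its 5 clones ranged from 1.15 to 1.54. The immunoproteasome subunits Psmb9 and Psmb10 differed by 1.28 and 0.83 and the heavy chain H2-D1 by 1.03, none past the threshold; class I heavy chains are near-identical, so their clones may share signal. The list median was 0.49 and 0.47 without sham array 3. For MHC class II, 1 of 9 genes lay above all sham arrays (5.55% over all genes), with a list median of 0.51. Sham array 3 stood at 1.04 for this list beside lymphedema arrays at 1.11, 1.05 and 0.78.

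The promoters of interferon-induced genes often carry the interferon-stimulated response element, and the letters GAAA, any 2 bases and GAAA again were searched for on both strands from 250 bases before to 50 bases after each start in RefSeq (GRCm38.p6). They occurred in 9 of 17 interferon response genes with a promoter (52.9%) and 2 of 11 MHC class I genes (18.2%), against 3.44% of all 32851 promoters and 3.79% of the tested genes. Of the 53 genes with a promoter that rose without sham array 3, 6 held them (11.3%), and of the 19 that fell, 1 (5.26%). A match is a description of letters and not of binding, and the interferon list was chosen for its known response. The windows of Irf7, Ifitm1, Irf1, Psmb9, Psmb10 and H2-D1, genes described above, held no match. The matches of Ifitm3 begin after its start. The promoters of B2m, Ifit1 and Ifitm3 are shown, as genes whose lymphedema arrays all exceeded the sham arrays and whose window holds the letters, given 5′ to 3′ on the strand of the gene with the matches, on either strand, in capitals. They lie at chr2:122147437-122147736 (plus strand), chr19:34640639-34640938 (plus strand) and chr7:141010695-141010994 (minus strand).
B2m: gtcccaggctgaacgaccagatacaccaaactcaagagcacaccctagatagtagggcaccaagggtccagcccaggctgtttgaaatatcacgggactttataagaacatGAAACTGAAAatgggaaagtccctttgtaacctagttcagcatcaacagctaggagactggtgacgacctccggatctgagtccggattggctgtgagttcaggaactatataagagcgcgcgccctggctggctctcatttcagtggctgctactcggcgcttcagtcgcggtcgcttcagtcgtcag
Ifit1: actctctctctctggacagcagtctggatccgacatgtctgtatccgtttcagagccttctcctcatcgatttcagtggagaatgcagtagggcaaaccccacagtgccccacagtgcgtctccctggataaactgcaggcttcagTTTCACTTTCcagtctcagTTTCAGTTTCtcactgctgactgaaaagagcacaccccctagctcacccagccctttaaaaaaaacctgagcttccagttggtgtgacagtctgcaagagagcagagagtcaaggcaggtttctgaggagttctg
Ifitm3: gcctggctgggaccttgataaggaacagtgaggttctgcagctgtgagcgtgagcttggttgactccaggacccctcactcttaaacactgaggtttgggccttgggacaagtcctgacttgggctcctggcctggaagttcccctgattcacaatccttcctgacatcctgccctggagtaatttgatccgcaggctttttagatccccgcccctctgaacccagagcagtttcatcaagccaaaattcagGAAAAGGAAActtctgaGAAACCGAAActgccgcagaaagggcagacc

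The list of calgranulin, lipocalin and stefin genes lay above normal skin on the sham arrays and further above it on the lymphedema arrays. Some of its members are made by neutrophils and by activated keratinocytes, and it also holds related genes of wider expression. Of 14 measured, 6 lay above all sham arrays and 0 below (5.55% and 4.47% over all genes). S100a8, S100a9, Lcn2, Stfa1 and Stfa3 rose without sham array 3, as 0.775% of all genes did. S100a8 read 1.86, 2.14 and 2.04 in lymphedema and -0.02, -0.01 and 1.15 in sham, against -0.96, -0.84 and -0.47 in normal skin. The difference was 1.64 (SE 0.29, 3.12-fold, limma adjusted p = 0.185; 2.03 without sham array 3, adjusted p = 0.00222); its clones gave 0.53 and 2.75. The stefins Stfa3 and Stfa1, inhibitors of cysteine proteases, differed by 1.09 and 0.89, and the clones of Stfa1, from a family of close copies, ranged from -0.05 to 1.52. The list stood at 0.82, 1.16 and 0.93 in lymphedema and 0.50, 0.59 and 0.57 in sham relative to normal skin.

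Among 9 neutrophil markers, several of them in the list before, 4 lay above and 1 below all sham arrays (5.55% and 4.47% over all genes). Lactoferrin (Ltf), a protein of secondary granules, differed by 0.68 and did not pass. Mmp9, a gelatinase of neutrophils and keratinocytes named after its values were seen, rose by 1.46 without sham array 3, where it read -0.73 beside -2.03, -1.68 and -1.28 in lymphedema.

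For macrophage and monocyte markers sham array 3 lay with the lymphedema arrays. Of 18 measured, 16 differed upward, 2 of them with all sham arrays below (5.55% over all genes), and Fcer1g, Aif1 and Ms4a6b rose without sham array 3. Aif1, a calcium-binding protein of macrophages, read 0.95, 1.08 and 1.52 in lymphedema and -0.67, -0.18 and 1.02 in sham, so that sham array 3 fell within the lymphedema range. The list stood at 0.65, 0.69 and 0.77 in lymphedema and at 0.42, 0.03 and 0.66 in sham. The complement list, with C1qc, a chain of the first component, rising by 1.47 without sham array 3, had a median of 0.13, and the cathepsin and lysosome list, with Ctsz and legumain (Lgmn) rising by 1.24 and 1.15 without that array, had 0.18. The leukocyte actin and adhesion list had 5 of 22 genes above all sham arrays and 0 below (5.55% and 4.47% over all genes), with a median of 0.26; Coro1a and Rac2, a GTPase of blood cells, rose without sham array 3 (Rac2 0.27, 0.23 and 0.19 in lymphedema, -1.12, -1.26 and 0.15 in sham).

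Of 7 mast cell markers, Srgn, the granule proteoglycan core also made by other leukocytes, and Hdc, which makes histamine, rose by 1.92 and 1.91 without sham array 3. Sham array 3 read 0.99 for Srgn and -0.82 for Hdc, above every lymphedema array. With all arrays the 2 genes differed by 1.16 and 1.10 (limma adjusted p = 0.683 and 0.717). The more specific proteases Cma1 and Cpa3 differed by 0.59 and 0.54 and did not pass. T cell markers had a median of -0.28 over 7 measured genes of 21, the CD3 chains not among them; Cd8a differed by -0.39, and Ctla2a, a protease inhibitor also found outside T cells, rose by 1.95 without sham array 3. Of 15 Toll-like receptor and NF-kappaB genes 0 passed in any of these fits except the slide-block fit without sham array 3, which passed 1, and the list median was 0.05.

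**Figure D4:**
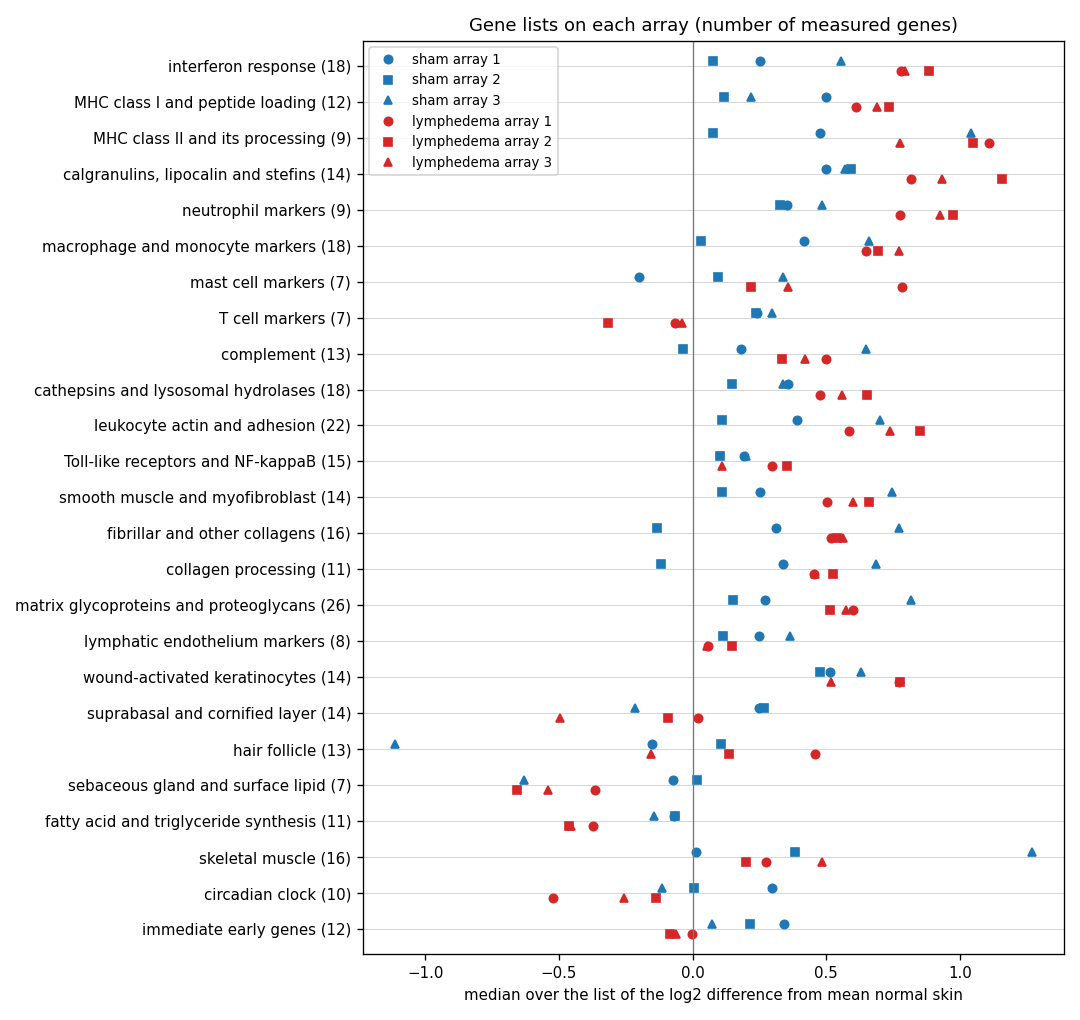
Median over each gene list of the log2 difference from mean normal skin on the sham (blue) and lymphedema (red) arrays, with the number of measured genes in parentheses. The lymphedema arrays lie beyond all sham arrays for, among others, the interferon, MHC class I, calgranulin, neutrophil and fatty acid lists, whereas sham array 3 (blue triangle) reaches or passes them for the collagen, matrix, complement and myofibroblast lists.

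As lists, genes of repair and matrix lay above sham arrays 1 and 2 in lymphedema and below sham array 3. For 16 collagens the list stood at 0.52, 0.54 and 0.56 in lymphedema and at 0.31, -0.13 and 0.77 in sham, with a median difference of 0.18, or 0.45 without sham array 3. Col8a1, a short-chain collagen of vessel walls and wounds, rose by 1.80 without it (lymphedema 0.92, 1.33 and 1.72, sham -0.03, -0.93 and 1.31), while the fibrillar Col5a2 differed by 0.66 and did not pass. For 26 matrix glycoproteins and proteoglycans the median went from 0.12 to 0.31, and 5 rose without sham array 3 (0.775% over all genes). These were Tnc, elastin (Eln) and the microfibril proteins Fbn2 and Mfap2, with differences of 1.95, 1.14, 1.07 and 1.23, and Ogn, a proteoglycan named after its values were seen, with 1.10.

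Eln was the 1 matrix gene above all sham arrays (5.55% over all genes), at -1.0, -0.74 and -1.0 against -1.97, -2.13 and -1.32. Fmod, a proteoglycan that binds collagen fibrils, was the 1 below them (4.47% over all genes), by -0.38. Lysyl oxidase (Lox), which crosslinks collagen and elastin, rose by 1.26 without sham array 3, which read -0.16 above lymphedema at -0.43, -0.57 and -0.30. In the collagen processing list 0 of 11 genes were separated from all sham arrays. Of 14 smooth muscle and myofibroblast genes 0 passed, and the median went from 0.14 to 0.39 without that array; Cald1, an actin-binding protein, differed by 0.63.

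Of the lymphatic endothelial markers, the defining Lyve1, Prox1, Pdpn and Flt4 were not among the 8 genes of 19 with a value on every array. The list median of the differences was 0.24, while its level relative to normal skin was 0.06, 0.15 and 0.05 in lymphedema and 0.25, 0.11 and 0.36 in sham, so these summaries differ in sign. Of those measured 0 passed and 1 lay above all sham arrays (5.55% over all genes), namely Nrp2, a receptor for VEGF-C, with a difference of 0.47 (SE 0.25). The scavenger receptor Stab1, also of macrophages, differed by 0.57. Vegfc, the chief lymphangiogenic factor, read -0.56, -0.62 and -0.53 in lymphedema and -0.71, -0.28 and -0.07 in sham, a difference of -0.22 (SE 0.20, limma adjusted p = 0.842) within the spread of the sham arrays. Its 2 clones differed in sign, at -0.73 and 0.30.

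In the epidermis the wound-activated keratinocyte list lay above normal skin after both operations, at 0.77, 0.78 and 0.52 in lymphedema and 0.51, 0.48 and 0.63 in sham. Its 4 genes that rose without sham array 3 were S100a8, S100a9, Stfa1 and Stfa3. Krt16, the wound keratin, named after its values were seen, differed by 0.66, with lymphedema at -0.75, -0.66 and -0.73 within the range of normal skin. Of 14 suprabasal and cornified layer genes 12 differed downward and 2 lay below all sham arrays (4.47% over all genes). These were the epidermal lipoxygenases Alox12e and Alox12b, by -1.22 and -0.61, and neither passed.

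Of 11 fatty acid and triglyceride synthesis genes 3 lay below all sham arrays and 0 above, where 4.47% and 5.55% of all genes did so. None passed (0 with all arrays and 0 without sham array 3, by limma), and the list stood at -0.37, -0.46 and -0.46 in lymphedema and at -0.07, -0.07 and -0.15 in sham. Dgat2, which makes triglyceride, read -0.22, -0.38 and -0.11 against 0.44, 0.35 and 0.22, a difference of -0.57 (SE 0.18, limma adjusted p = 0.536). Me1, which supplies NADPH, and Acly, which supplies acetyl-CoA, differed by -0.48 and -0.44. The sebaceous gland list had a median of -0.49 over 7 genes, and Acoxl fell without sham array 3, which stood at -0.63 for that list beside lymphedema at -0.36, -0.66 and -0.54.

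Immediate early genes, which respond to handling and growth signals within minutes, differed downward, with the sham arrays above normal skin and the lymphedema arrays near it. The list stood at 0.00, -0.09 and -0.06 in lymphedema and 0.34, 0.21 and 0.07 in sham, and 4 of 12 genes lay below all sham arrays (4.47% over all genes). Egr1 read 0.89, 0.58 and 0.47 against 1.66, 1.73 and 1.26 in sham and 0.95, 0.50 and 0.33 in normal skin (difference -0.90, SE 0.21, limma adjusted p = 0.435). Fos and Klf4 differed by -0.42 and -0.53. In the circadian clock list the median was -0.28, and the repressor Nr1d2 differed by -0.87, below all sham arrays; 0 genes of either list passed.

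Lists of other tissue compartments stood apart on sham array 3. The skeletal muscle list stood at 0.01, 0.38 and 1.27 on the sham arrays and at 0.27, 0.20 and 0.48 in lymphedema; Tnnc2, a troponin of fast muscle, read -4.90, -3.52 and -2.84 in sham and -5.35, -5.44 and -5.85 in normal skin, and Atp2a1, the calcium pump of fast muscle, read -3.44, -2.85 and -1.25. The hair follicle list stood at -0.15, 0.11 and -1.11 on the sham arrays and 0.46, 0.14 and -0.16 in lymphedema, with 9 of 13 genes differing upward and a median difference of 0.68, or 0.38 without sham array 3. Against the direction of that list, Krtap13, a hair keratin-associated protein, fell by 1.06 without sham array 3. The part of these in the results above was not tested.

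Of 34 measured genes that the study's text names, 12 rose without sham array 3 (0.775% over all genes). With all arrays 8 lay above all sham arrays and 2 below (5.55% and 4.47% over all genes), and the list median was 0.31, or 0.43 without sham array 3. Many of these genes were chosen from these same arrays, so the counts are not independent evidence. The list stood at 0.83, 0.88 and 0.82 in lymphedema and at 0.40, 0.14 and 0.86 in sham. Gsn, an actin-severing protein, was 1 of the 2 below, with a difference of -0.52 and clones from -0.96 to 0.14.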

How the data were processed

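Pooled tail skin RNA of 3 lymphedema, 3 surgical sham and 3 normal samples was measured on dual-channel cDNA arrays against whole-embryo RNA. The deposited log2 ratios are the authors' processed values, one column per array; the log base and any centering are not stated, and the values were taken as log2. Image analysis and spot filters beyond the methods are not given in the sources used here. The sign was turned, each array was centered on its median, and features without a value on all arrays were left out (30702 of 42624 kept). Of all features 20678 were named by 1 gene, 953 by several and 20993 by none in the platform table; clones of a gene were averaged (8644 genes). Between 1.34% and 12.6% of values were missing per array.

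limma 3.58.1 in R 4.3.3 fitted group means over all 9 arrays, with Benjamini-Hochberg adjustment over all features or all genes and a threshold of 0.05; a log2 difference is in units of the ratio to the embryo. The numbers of arrays limit the precision, and p-values measure the spread between these pools. The calls were tested on simulated data. The 18 other fits changed centering, scaling, missing-value rule, arrays, blocks or clones, and SAM was run on features. Array numbers shared by lymphedema and sham (1 to 3) did not pair them: deviations from the group means correlated at -0.05, 0.06 and 0.30. Genes named were the 10 largest rises and falls, places being filled by lowest p among genes whose groups did not overlap, up to 4 genes per list, genes the study names, and 5 rises and falls without sham array 3; others are marked. The lists and comparison were chosen with earlier results of these data known. The direction of each ratio rests on embryo and skin genes. No values were taken from the authors' comparisons, but the list of genes that the study's text names draws on them.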

Additional observations from a re-analysis of the deposited data

How the results depend on the processing

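All 80 genes given with a difference kept its sign under all 18 alternatives, much of which was fixed in advance. Where the groups did not overlap, leaving out an array cannot turn the sign. Leaving out a normal array or entering the replicate block keeps the difference as it was, and the slide block repeats the fit without lymphedema array 1. In 59 of 1440 refits a gene passed the threshold that was not past it with all arrays, while 19 lost a call made with all arrays (14 of Irf7, 5 of Cd160). Counts were less stable. For features, scaling to one median absolute deviation passed 2 higher and 5 lower, SAM 2 lower, the lymphedema and sham arrays alone 0 lower, the slide set as a block 0 lower, and the slide block without sham array 3 104 higher and 30 lower. For genes, 0 passed higher without centering, after quantile normalization, with values on 2 of 3 arrays per group, with the lymphedema and sham arrays alone, under the slide block and under the replicate block, in which Irf7 did not pass and 1 gene passed lower; scaling passed 3 higher and 4 lower, the 6 arrays alone 0 lower, and the slide block without sham array 3 21 higher and 6 lower. Leaving out 1 array gave 0 to 230 features higher, 0 to 51 lower, 0 to 67 genes higher and 0 to 21 lower, the upper end in each case without sham array 3; without lymphedema array 2 or 3, sham array 1 or sham array 2, 0 genes passed in either direction, with 348, 665, 915 and 503 at an unadjusted p under 0.05. Genes whose groups did not overlap numbered 834 and 660 under the slide block, 1999 and 1743 under the slide block without sham array 3, and 653 to 1515 and 527 to 1201 with 1 array left out, where fewer arrays must overlap less.

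Of the list medians, scaling gave 0.58 for calgranulins, 0.47 for neutrophil markers, 0.25 for mast cells, 0.72 for MHC class I, 0.44 for wound-activated keratinocytes, -0.0272 for the sebaceous list, -0.20 for fatty acid synthesis and -0.15 for immediate early genes. Quantile normalization gave 0.37 for neutrophil markers and 0.25 for mast cells. Values on 2 of 3 arrays gave 0.57 for calgranulins, 0.13 for lymphatic markers, -0.17 for fatty acid synthesis and -0.39 for immediate early genes, and the 6 arrays alone 0.50 for neutrophil and 0.12 for lymphatic markers. One clone per gene gave -0.39 for T cells and -0.19 for fatty acid synthesis. The slide block gave -0.35 for fatty acid synthesis and, without sham array 3, -0.46 there, 0.77 for neutrophil markers, 0.31 for cathepsins, -0.0665 for Toll-like receptors and 0.47 for myofibroblast genes. With 1 array left out the medians ran from 0.26 to 0.58 for MHC class I, -0.30 to -0.0792 for T cells, -0.40 to -0.14 for fatty acid synthesis, 0.0526 to 0.26 for lymphatic markers, 0.19 to 0.66 for macrophages, 0.25 to 0.83 for neutrophil markers, 0.0056 to 0.39 for myofibroblast genes and 0.0825 to 0.32 for wound-activated keratinocytes. The cause of these shifts was not tested. With 3 pools a group and no spot intensities used here, signal over background could not be weighed.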
